A study of Homo sapiens with 2 samples.

Results

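The 10 small nucleolar RNA (snoRNA) host genes GAS5, SNHG1, SNHG3, SNHG5, SNHG6, SNHG7, SNHG8, SNHG12, SNHG15 and SNHG16 were described in D407 cells, a human cell line that its submitters label as adult retinal pigment epithelium (RPE). The 10 genes were taken by name from a deposited table of 37364 genes, and all 10 had a level above the minimum used below. Polyadenylated RNA of 2 cultures was compared, 1 that received clusterin, a secreted chaperone glycoprotein, and 1 control that did not. No genetic change was labelled in either culture, and neither dose nor duration of the treatment is known from the sources used here. Levels are scaled to the reads of each library, so neither the number of cells nor the RNA per cell can be read from them. With 1 library per group there was no test between the groups. Each ratio below therefore compares 2 libraries, and its 95% interval holds counting error alone.

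snoRNA host genes are transcribed and spliced like messenger RNA genes, and their introns release the snoRNAs. C/D box snoRNAs guide ribose methylation of ribosomal RNA and related targets, and H/ACA box snoRNAs guide pseudouridylation. The spliced host transcripts of this family have little coding potential, and several are known to begin with a pyrimidine tract, as ribosomal protein genes do, to bind ribosomes and to be degraded by nonsense-mediated decay (NMD). GAS5, growth arrest specific 5, is also known to bind the glucocorticoid receptor.

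The sequence around the annotated start is shown for 7 members because the start is the feature by which the family is linked to the ribosomal protein genes. Each stretch runs 5′ to 3′ from 20 bases before to 20 bases after the start, on the strand of the gene, from RefSeq on GRCh38.p14, and the capitals mark the longest run of C or T that reaches within 5 bases of the start.
SNHG1: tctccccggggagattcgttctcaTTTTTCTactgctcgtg
SNHG3: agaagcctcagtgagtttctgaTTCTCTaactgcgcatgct
SNHG5: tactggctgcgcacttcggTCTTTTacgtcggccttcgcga
SNHG7: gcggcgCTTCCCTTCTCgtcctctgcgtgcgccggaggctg
SNHG8: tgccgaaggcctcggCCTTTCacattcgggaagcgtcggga
SNHG12: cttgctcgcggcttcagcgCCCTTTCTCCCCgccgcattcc
SNHG16: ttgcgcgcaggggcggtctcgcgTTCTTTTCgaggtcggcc
These stretches lie at chr11:62855865-62855905 (minus strand), chr1:28505923-28505963 (plus), chr6:85678713-85678753 (minus), chr9:136728164-136728204 (minus), chr4:118278742-118278782 (plus), chr1:28581853-28581893 (minus) and chr17:76557744-76557784 (plus), in the order shown. The pyrimidine run was 12 bases long in SNHG12, 11 in SNHG7, 8 in SNHG16, 7 in SNHG1 and 6 each in SNHG3, SNHG5 and SNHG8. A run of at least 6 bases was found in 23.1% of 35114 RefSeq promoters searched on the strand of the gene in the same way, where the median run was 4 bases. The 7 starts shown are those of 7 of the 10 members, so they give no share for the family. Among 81 ribosomal protein promoters the median run was 11 bases, and 75.3% reached 6. The run is a description of letters near an annotated start, and the start itself was not measured here. The marked run covered the annotated start in SNHG5, SNHG8 and SNHG12 only. In SNHG7 it ended 4 bases before the start. In SNHG3, SNHG16 and SNHG1 it began 2, 3 and 4 bases after the start. In SNHG7 and SNHG1 a shorter, unmarked run of C or T covered the start. The annotated start lay 3 bases from that of the deposited table in SNHG1, 19 bases in SNHG12 and 0 in the other 5. For GAS5 it belonged to a longer model, 1058 bases away from the start used in the table, so it is not shown. SNHG6 and SNHG15 are named only.

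The libraries held about 38237000 reads for the control and 33177000 for clusterin, as recovered from the deposited values. Gene levels are given as RPKM, reads per kilobase of transcript scaled to the total of mapped reads. A gene with a mean level of at least 1 RPKM was counted as measured, which 13244 genes were. Of 11 marker genes of RPE, 3 were measured and 6 were listed at 0 in both libraries, RPE65, RLBP1, LRAT, TTR, TYR and OTX2. A listed 0 does not show absence, since the cytosolic ribosomal protein gene RPS18 was listed at 0 as well. The 4 simple epithelial keratins summed to 984 RPKM in the control and 1003 with clusterin. The summed levels of 5 fibroblast markers were 74.0 and 72.2 RPKM, of 5 leukocyte markers 6.69 and 6.50, and of 4 endothelial markers 3.85 and 3.49. The part of other cell types in the values below was not tested.

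All 10 host genes were well above the median level of measured genes, 5.75 RPKM. GAS5 (chromosome 1, 173863901 to 173867987, minus strand, GRCh38) led them, with 171 RPKM in the control and 155 with clusterin, a level above 97.8% of measured genes. It made up 32.5% and 31.0% of the summed level of the 10. SNHG6 (chromosome 8, 66921930 to 66925542, minus strand) followed at 79.5 and 79.7 RPKM, and SNHG8 (chromosome 4, 118278762 to 118279823, plus strand) at 65.7 and 62.4. These 3 kept their order in both libraries, and their Poisson counting intervals did not overlap. SNHG16 (chromosome 17, 76557764 to 76565348, plus strand) stood at 49.7 and 47.7 RPKM. SNHG1 (chromosome 11, 62851988 to 62855888, minus strand) was at 43.3 and 40.8, and SNHG7 (chromosome 9, 136724594 to 136728184, minus strand) at 38.5 and 41.6. SNHG1 and SNHG7 changed places between the libraries, and with clusterin their counting intervals overlapped.

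The lower 4 members were SNHG15, SNHG3, SNHG5 and SNHG12. SNHG15 (chromosome 7, 44983028 to 44986660, minus strand) stood at 28.5 RPKM in the control and 28.4 with clusterin. SNHG3 (chromosome 1, 28505943 to 28510892, plus strand) stood at 22.5 and 19.5. SNHG5 (chromosome 6, 85677007 to 85678733, minus strand) was at 15.8 and 13.1, and SNHG12 (chromosome 1, 28578538 to 28581854, minus strand) at 10.3 and 12.3. In the control SNHG5 was above SNHG12 by more than counting error, while with clusterin their intervals overlapped (11.5 to 15.0 RPKM for SNHG5 and 10.9 to 13.7 for SNHG12). The span from the lowest to the highest member, by the mean of both libraries, was 14.4-fold.

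**Figure D1:**
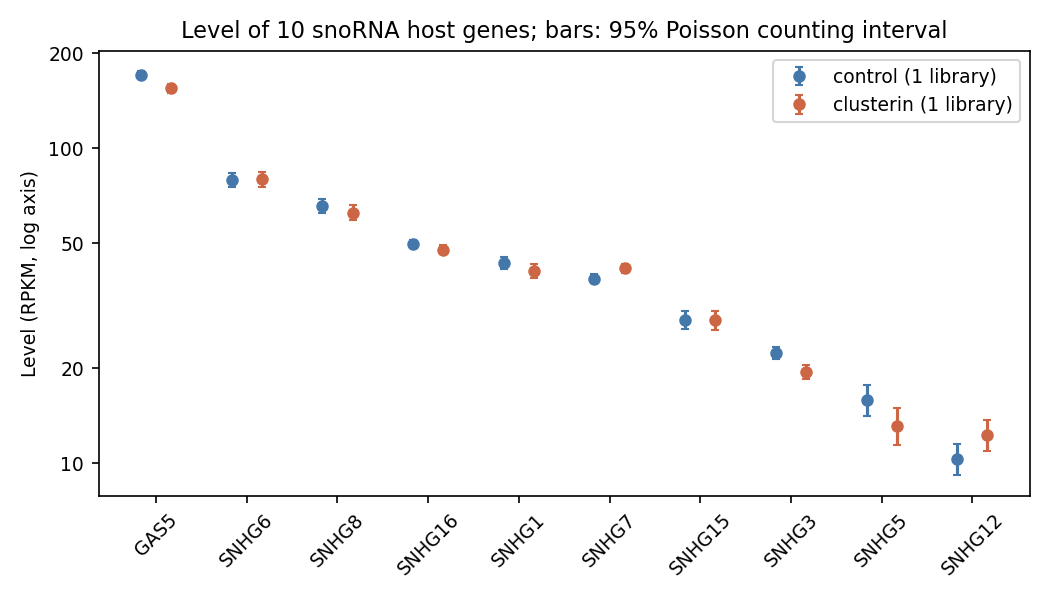
Level of each snoRNA host gene in RPKM (log axis) in the control and the clusterin library, ordered by the control; bars are 95% Poisson counting intervals and there is 1 library per point. GAS5 stands at 171 and 155 RPKM and SNHG12 at 10.3 and 12.3, and the order of SNHG1 and SNHG7 is exchanged between the libraries.

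The members differed little between the libraries and in both directions. On the scale log2((clusterin RPKM + 1)/(control RPKM + 1)), 7 of 10 lay below 0, beside 70.2% of all measured genes, and 3 above 0, beside 29.8%. The count below 0 was 4 with levels scaled to the ribosomal protein genes, where SNHG8, SNHG15 and SNHG16 turned positive. With that scaling the median of all measured genes was 0.008, so the share of 70.2% does not apply to this count. In the values as deposited 5 of the members lay below the median of all measured genes. The members' median was -0.07 and that of all measured genes -0.06. The members ranged from -0.25 to 0.23. None of the 10 was 2-fold apart, a size that 0.219% of measured genes reached. The levels of the 10 genes together summed to 524 RPKM in the control and 500.5 with clusterin, a ratio of 0.954, near the median ratio of all measured genes, 0.953.

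Among the members that were lower with clusterin, GAS5, SNHG3 and SNHG5 had counting intervals wholly below a ratio of 1. GAS5, host of 10 listed C/D box snoRNAs, had 4124 reads in the control and 3251 with clusterin, a ratio of RPKM of 0.909 (0.867 to 0.952). SNHG3, known as the host of the SNORA73 (U17) snoRNAs, which act in the processing of ribosomal RNA, had 2016 and 1515 reads and a ratio of 0.866 (0.810 to 0.926). SNHG5, host of the SNORD50 pair, had 307 and 221 reads and the lowest ratio of the 10, 0.830 (0.695 to 0.989). It lay at percentile 6.25 of the differences of all measured genes, SNHG3 at 11.4 and GAS5 at 22.9. Intervals below 1 were frequent between these libraries: 26.8% of measured genes with recovered reads had one, and 3 of the 10 members is close to that share. In either direction, 5 of the 10 intervals left out 1, beside 31.3% of measured genes and 37.3% of those with at least 500 reads over both libraries, as every member had.

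SNHG7 and SNHG12 had counting intervals above 1, which 4.45% of measured genes had, and 4.81% of those with at least 500 reads. SNHG7, host of SNORA17 and SNORA43, had 3944 and 3691 reads and a ratio of 1.08 (1.03 to 1.13). SNHG12, host of 3 H/ACA box snoRNAs and 1 C/D box snoRNA, had 291 and 301 reads and the highest ratio of the members, 1.19 (1.01 to 1.41). It lay at percentile 97.2 of all measured genes and SNHG7 at 90.1. Measured against the median ratio of all genes in place of 1, the intervals of SNHG7 and SNHG12 lay above it (background 11.5%), those of GAS5 and SNHG3 below it (background 10.9%), and that of SNHG5 held it.

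The other 5 members had intervals that held 1. SNHG1, host of 8 listed C/D box snoRNAs, had 1849 and 1512 reads (ratio 0.942, 0.880 to 1.01). SNHG8, host of SNORA24, had 1554 and 1281 (0.950, 0.882 to 1.02), and SNHG16, host of the SNORD1 group, had 4821 and 4017 (0.960, 0.921 to 1.002). SNHG15, host of SNORA9, and SNHG6, host of SNORD87, were level between the libraries. Their ratios were 0.997 (0.903 to 1.10) from 875 and 757 reads, and 1.002 (0.928 to 1.08) from 1435 and 1248 reads. In the authors' deposited table, q lay under 0.05 for GAS5 (0.00123) and SNHG3 (0.000739), both lower, and for SNHG7 (0.0134), higher. Over all genes above 0 in the authors' deposited table, 12.0% had such a q, 10.4% lower and 1.63% higher with clusterin, and these q-values compare libraries and not cultures. This background takes in genes with a mean under 1 RPKM, which no member had, so it is not matched to the members in depth.

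Every member is listed a second time in the table, under its Ensembl identifier, and for 3 of them the direction of the difference depended on the row. The Ensembl rows of 9 members rested on transcript models from 1.49 to 5.75 times as long as those of the rows listed by symbol. For SNHG1 the model was 3792 bases long in place of 1118, within an annotated span of 3927 bases, so that it took in most of the introns. This SNHG1 row held 6370 control reads and 5843 clusterin reads, or 43.9 and 46.4 RPKM. Its ratio was 1.06 (1.02 to 1.10), against 0.942 in the row listed by symbol. The Ensembl row of SNHG15 had levels of 16.5 RPKM without and 17.4 with clusterin (ratio 1.05, 0.991 to 1.12). The rows under Ensembl identifiers carry coordinates of another genome build than the rows listed by symbol, and the alignment behind each kind of row is not known from the sources used here. How many reads the 2 rows of a gene share is therefore unknown, and their difference was not tested. The longer model of SNHG7 held fewer reads, 3786 and 3554, than the shorter one, 3944 and 3691.

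SNHG3 showed the widest gap between its rows. Its Ensembl row stood at 266 RPKM in the control and 286 with clusterin, 11.9 times the level of the row listed by symbol in the control, and its ratio was 1.07 in place of 0.866. Reads could not be recovered for that row because its deposited p is 0, so it has no interval. The SNORA73 genes of its introns were not analysed here. SNHG3 lies wholly inside the span of RCC1, a gene on the same strand that encodes a chromatin-bound exchange factor of the GTPase Ran. RCC1 stood at 19.4 and 18.8 RPKM (ratio 0.971, 0.912 to 1.03), and reads that SNHG3 and RCC1 may share cannot be told apart.

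For the other 7 members both rows had the same direction. The Ensembl rows gave ratios of 0.900 (0.872 to 0.929) for GAS5, 0.925 (0.839 to 1.02) for SNHG5, 0.955 (0.921 to 0.990) for SNHG16 and 0.969 (0.916 to 1.02) for SNHG8. They gave 1.01 (0.946 to 1.08) for SNHG6, 1.08 (1.03 to 1.13) for SNHG7 and 1.18 (1.08 to 1.29) for SNHG12. GAS5 at the low end and SNHG7 and SNHG12 at the high end thus had intervals without 1 in both rows, while the interval of SNHG5 held 1 in its Ensembl row and that of SNHG16 left out 1 there alone.

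The reads of the listed snoRNAs were then subtracted from the Ensembl rows, as if all of them had been counted there and from the same alignment, which the files do not state. For SNHG1, whose 8 snoRNAs had 2700 reads in the control and 2929 with clusterin, 3670 and 2914 reads were left, a ratio of 0.915 (0.871 to 0.961), on the side of the row listed by symbol. For SNHG15 the ratio went from 1.05 to 0.949 (0.886 to 1.02), and for SNHG12 from 1.18 to 1.10 (0.976 to 1.23). GAS5 moved little, to 0.886 (0.854 to 0.920), and SNHG7 came to 1.12 (1.04 to 1.20). For SNHG7 only 1619 and 1567 reads were left, far fewer than the 3944 and 3691 of its shorter model. Whether the subtraction holds for SNHG7 is therefore unknown, and its ratio of 1.12 cannot be read as that of the host alone.

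**Figure D2:**
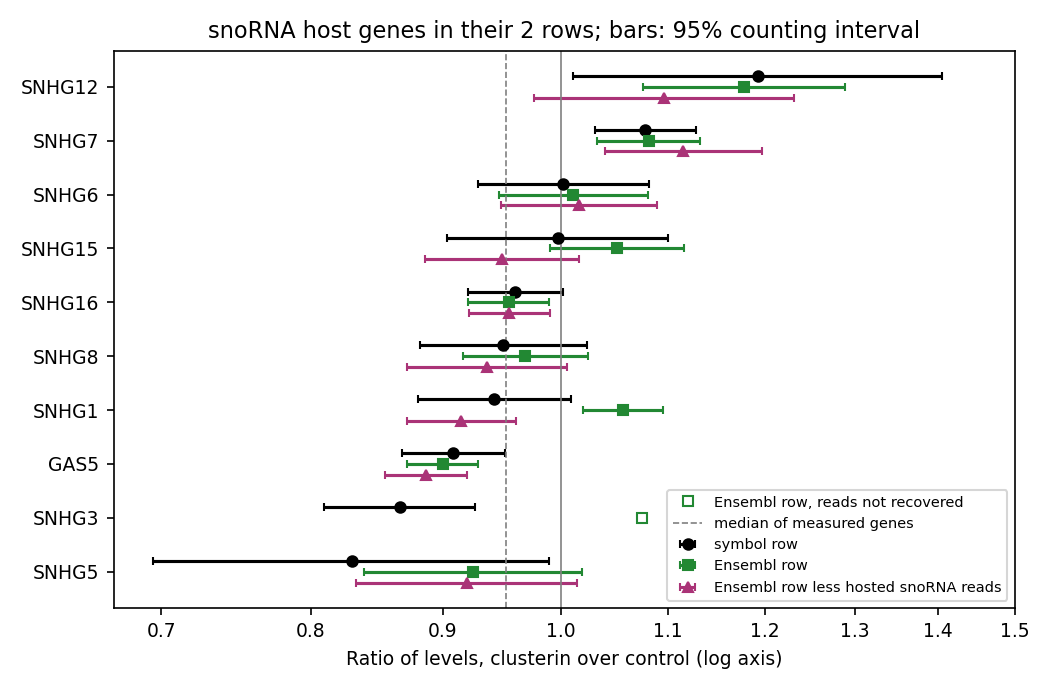
Ratio of levels, clusterin over control (log axis), of each host gene in the row listed by symbol (circles), in its Ensembl row (squares) and in the Ensembl row after the reads of the listed snoRNAs are subtracted (triangles); bars are 95% counting intervals, the solid line is 1 and the dashed line the median ratio of measured genes, 0.953. The squares of SNHG1 (1.06), SNHG15 (1.05) and SNHG3 (1.07, reads not recovered) lie right of 1 while their circles lie left of it.

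The table lists 32 snoRNAs inside 9 of the 10 hosts, all on the strand of the host, 25 of the C/D box and 7 of the H/ACA box class. They are 43 to 134 bases long and carry no poly(A) tail as mature snoRNAs, so the level in a library selected on oligo(dT) need not be that of the mature snoRNA pool. How far RNA without a poly(A) tail entered these libraries was not tested. Their reads over both libraries ran from 10 to 4559, with a median of 175.5. Relative to the control, 19 of the 32 were higher with clusterin and 13 lower, and none was 2-fold apart on the log2(RPKM + 1) scale.

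All 7 H/ACA box snoRNAs of these hosts were higher with clusterin, with a median log2 ratio of 0.41. Among the 86 other SNORA genes with reads, 68.6% were higher too, with a median of 0.13, so the direction was shared with most of that class. SNORA9, inside SNHG15, had 462 and 585 reads and reached 90.8 RPKM without and 133 RPKM with clusterin, which gives 1.46 (1.29 to 1.65). Its host stood at a ratio of 0.997, and the 2 intervals did not overlap. In SNHG12, SNORA16A stood at 37.7 and 50.2 RPKM (ratio 1.33, 1.09 to 1.62) and SNORA44 at 13.1 and 19.6 (1.502, 1.08 to 2.10), and the intervals of both overlapped that of the host. The third, SNORA61, had 87 reads in each library (ratio 1.15, 0.846 to 1.57).

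SNHG7 and SNHG8 each held an abundant H/ACA box snoRNA that was nearly level. SNORA43 of SNHG7 had 2106 and 1916 reads, or 411 and 431 RPKM (ratio 1.05, 0.985 to 1.12), far above SNORA17 in the same host at 12.0 and 16.1 RPKM (1.34, 0.939 to 1.92). SNORA24 of SNHG8 stood at 211 and 215 RPKM (1.02, 0.935 to 1.12). Within 1 host, snoRNA levels thus differed by up to 34.3-fold in SNHG7, 20.5-fold in SNHG1 and 59.7-fold in GAS5 in the control.

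Among the C/D box snoRNAs 12 of 25 were higher, beside 43.4% of 129 SNORD genes elsewhere. SNORD22 in SNHG1 was the most abundant, with 2086 and 2473 reads (433 and 592 RPKM). Its ratio was 1.37 (1.29 to 1.45), while its host stood at 0.942. The other 7 snoRNAs of SNHG1 lie nearer the start of the gene and had 30 to 127 reads per library. Of these SNORD30 (68 and 30 reads, ratio 0.508, 0.319 to 0.792), SNORD29 (79 and 44, 0.642, 0.434 to 0.940) and SNORD25 (118 and 72, 0.703, 0.517 to 0.951) had intervals below 1. SNORD26 was at 0.771 (0.579 to 1.02), and SNORD27, SNORD28 and SNORD31 were at 1.25, 1.14 and 1.09 with intervals that held 1. One host locus thus held snoRNAs on both sides of 1.

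No snoRNA of GAS5 had an interval above 1. SNORD76 led with 967 and 822 reads, at 312 and 306 RPKM (ratio 0.980, 0.892 to 1.08), and was the 1 snoRNA of GAS5 above the level of the host. SNORD44 had 211 and 146 reads and a ratio of 0.797 (0.641 to 0.989), and the intervals of the other 9 held 1. Summed, the 10 had 2038 and 1668 reads, a ratio of 0.943 (0.884 to 1.01), which overlapped the interval of GAS5. The summed snoRNAs of SNHG1 had a ratio of 1.25 (1.19 to 1.32), above the interval of their host, but SNORD22 alone carried this. Without it the other 7 had 614 and 456 reads, a ratio of 0.856 (0.757 to 0.968), which overlapped the interval of SNHG1. Without SNORD76 the other 9 of GAS5 had 1071 and 846 reads, a ratio of 0.910 (0.831 to 0.997).

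The remaining hosts held few snoRNA reads. SNORD87 of SNHG6 had 155 and 128 reads (ratio 0.952, 0.747 to 1.21). SNORD50A and SNORD50B of SNHG5 had 17 and 18 reads together, and SNORD1A, SNORD1B and SNORD1C of SNHG16 had 38 and 29, too few to place their ratios on a side of 1. SNORD99 of SNHG12 had 8 reads in each library. Over all 32, 4 intervals lay above 1 (SNORD22, SNORA9, SNORA16A and SNORA44) and 4 below (SNORD25, SNORD29, SNORD30 and SNORD44), beside 16.3% and 4.59% of 196 snoRNA genes elsewhere.

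**Figure D3:**
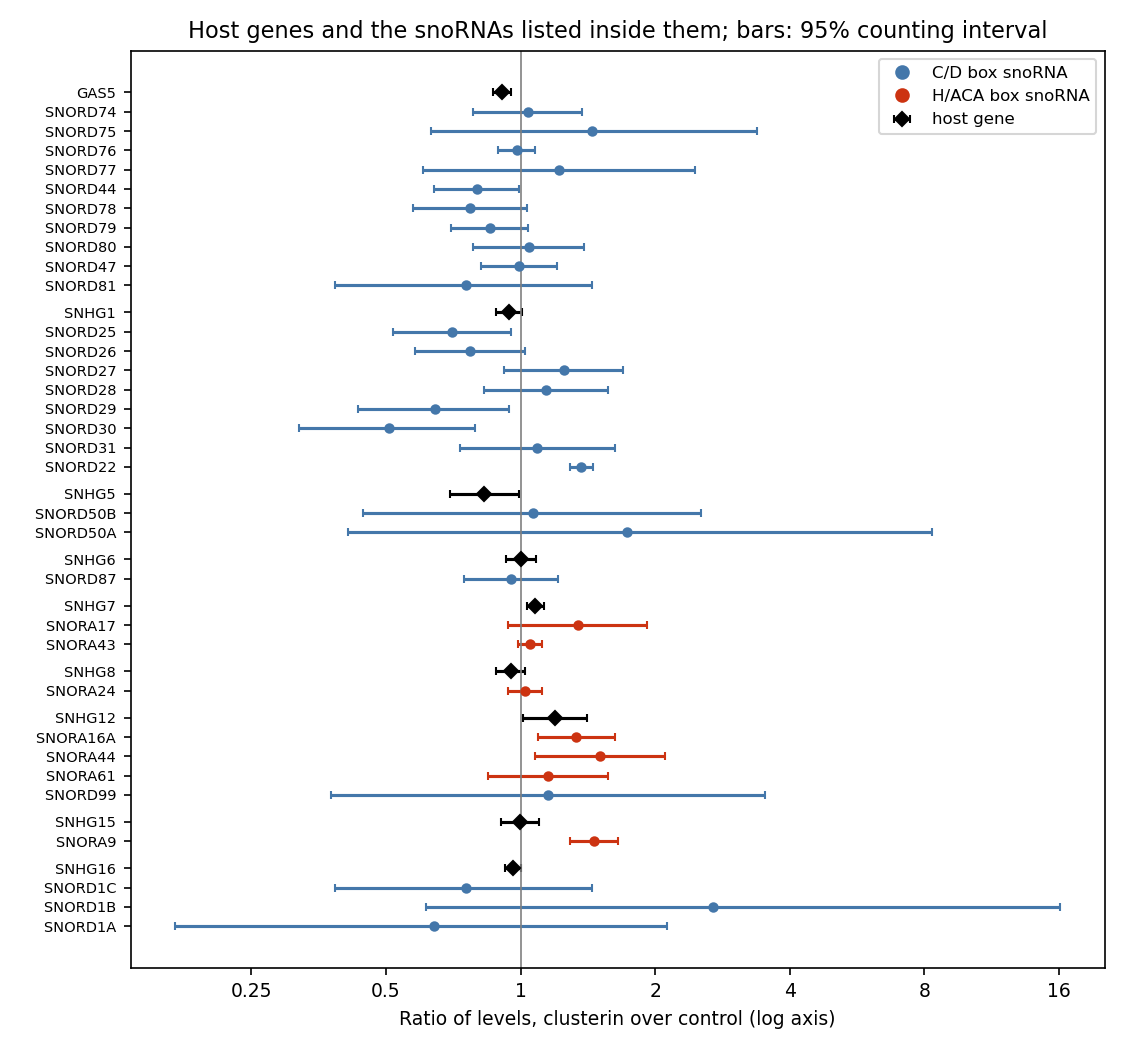
Ratio of levels, clusterin over control (log axis), of 9 host genes (diamonds) and of the snoRNAs listed inside each, in order from the start of the host; bars are 95% counting intervals. SNORD22 (1.37) and SNORA9 (1.46) lie right of the intervals of their hosts SNHG1 and SNHG15, and all 7 H/ACA box snoRNAs lie right of 1.

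**Figure D4:**
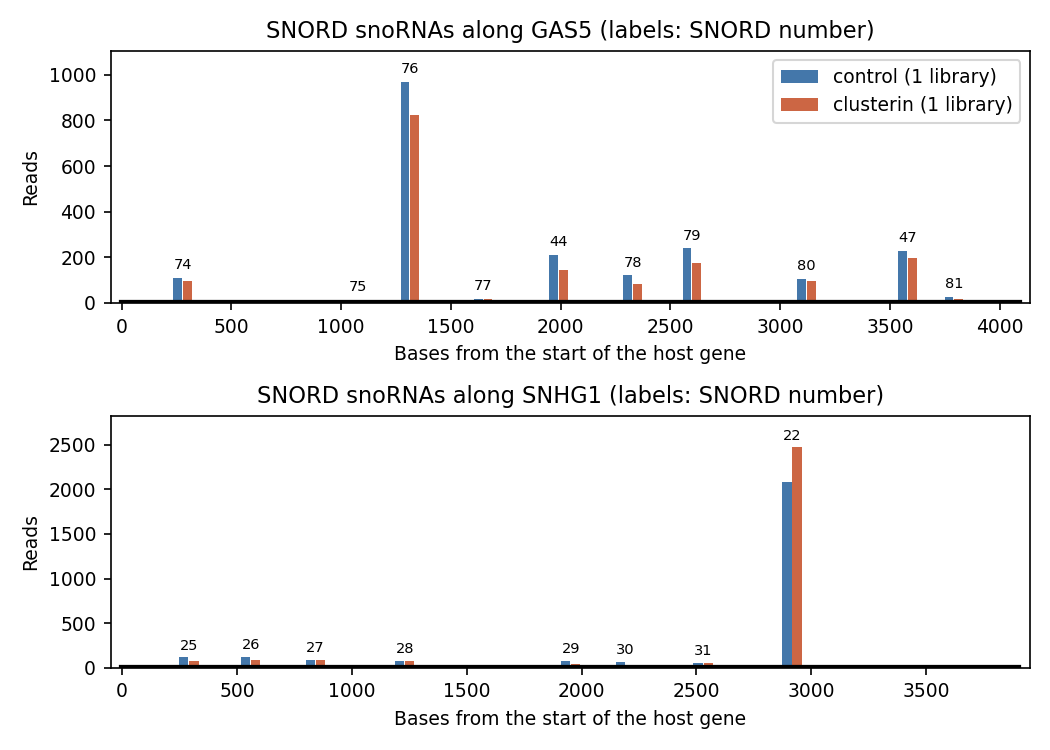
Reads of each C/D box snoRNA in the 2 libraries, placed by distance in bases from the start of its host gene (black line), for GAS5 and SNHG1. SNORD76 (967 and 822 reads) dominates GAS5, and SNORD22 (2086 and 2473 reads), the snoRNA furthest from the start of SNHG1, has far more reads than the other 7, which have 30 to 127.

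Genes next to or across the hosts were examined because no source states whether counting used the strand, and without it overlapping genes on opposite strands cannot be separated. GAS5-AS1, antisense to GAS5, overlaps its end by 41 bases and stood at 10.3 and 8.73 RPKM (ratio 0.849, 0.704 to 1.02). ZBTB37, a zinc finger gene 94 bases beyond the start of GAS5 on the other strand, stood at 1.52 RPKM in both libraries. SLC3A2, an amino acid transporter heavy chain gene 123 bases beyond the start of SNHG1 on the other strand, stood at 145 and 141 RPKM (ratio 0.973, 0.951 to 0.995). MCMDC2 spans all of SNHG6 on the opposite strand and stood at 1.13 and 1.19 RPKM. FAM69B overlaps SNHG7 by 125 bases (0.964 and 1.14 RPKM), and TRNAU1AP overlaps SNHG12 by 8 bases (4.49 and 4.08 RPKM). These overlapping genes on the opposite strand all stood below the level of their host. PRSS12, 214 bases from SNHG8, was at 1.83 and 2.06 RPKM. CYGB and ST6GALNAC2, at 166 and 30 bases from SNHG16, were both below 1 RPKM, as was MYO1G beside SNHG15.

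The remaining neighbours lay further off. CCM2, 13085 bases from SNHG15, was at 5.88 and 6.67 RPKM (ratio 1.13, 0.997 to 1.29). SYNCRIP (15.1 and 13.8 RPKM) lay beside SNHG5, WDR74 (26.25 and 25.9) beside SNHG1, AGPAT2 (22.6 and 22.5) beside SNHG7, and RAB42 (1.77 and 1.65) beside SNHG12. PHACTR4, beside SNHG3, was at 1.43 and 1.23 RPKM. SGK3 and TCF24 on either side of SNHG6 were below 1 RPKM, and HTR1E, LCN10 and NDST3, beside SNHG5, SNHG7 and SNHG8, were listed at 0.

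Other noncoding host genes had 17 measured members in a list of 23 found, of which 13 were below 0 and 4 above, with a median of -0.09 and none 2-fold apart. The list also holds GAS5-AS1 and LINC-PINT, which are not snoRNA hosts, and 7 of its measured genes were read from Ensembl rows. SNHG9 (6.29 and 4.27 RPKM, log2 difference -0.47) and SNHG11 (4.52 and 3.05, -0.45) were the lowest, both below every one of the 10 members. SNHG11 had 188 and 110 reads and a ratio of 0.674 (0.528 to 0.858), and SNHG9 56 and 33 reads with an interval that held 1. SNHG19 (0.04) and SNHG10 (0.04) were the highest, and C17orf76-AS1, listed now as SNHG29, had the highest level, 118 and 106 RPKM.

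Protein-coding genes that host snoRNAs were closer together than the 10 noncoding hosts. Of 36 measured, 33 were below 0 and 26 below the median of all measured genes, with a median of -0.08 and none 2-fold apart. The ribosomal protein genes RPL23 (482 and 410 RPKM, -0.23) and RPL27A (99.6 and 85.4, -0.22) were the lowest. HSPA8, a constitutive heat shock chaperone, and EEF2, the elongation factor of ribosomal translocation, were the highest at 0.02 and 0.01, and RPS2 had the highest level, 1379 and 1310 RPKM. Their range, -0.23 to 0.02, was narrower than the -0.25 to 0.23 of the 10. The ends of the latter range were SNHG5 (307 and 221 reads) and SNHG12 (291 and 301), the members with the fewest reads. The part of counting depth in this contrast was not tested.

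The proteins that assemble snoRNAs into particles had 20 measured genes of 21 listed, 18 below 0 and 11 below the median of all measured genes. The median was -0.08 and no gene was 2-fold apart. PIH1D1 (34.9 and 30.4 RPKM, -0.19) and RPAP3 (3.99 and 3.42, -0.18), both of the assembly complex that loads snoRNA core proteins, were the lowest, and NUFIP1 (1.04 and 1.20, 0.11) and RUVBL2 (60.9 and 62.3, 0.03), of the same machinery, the highest. NHP2, a core protein of H/ACA particles, had the highest level, 135 and 133 RPKM. The list thus held no gene beyond the range of the host genes in either direction.

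NMD and exon junction genes had a median of -0.11, with 20 of 22 below 0, 15 below the median of all measured genes and none 2-fold apart. MAGOHB, an exon junction core protein (4.92 and 3.95 RPKM, -0.26), and DCP1A, of the decapping complex (3.21 and 2.61, -0.22), were the lowest. SMG9, a regulator of the SMG1 kinase (5.82 and 6.14, 0.06), and EIF4A3, the exon junction helicase (44.7 and 45.9, 0.03), were the highest, the latter also in level.

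Other long noncoding RNAs, chosen as well-known ones outside the family, had 21 measured members. Of these 17 lay below 0 and 14 under the all-gene median, and the list median was -0.08. DLEU1 (9.93 and 7.86 RPKM, -0.30) and JPX (3.32 and 2.64, -0.25) were the lowest. RMRP, the RNA of the mitochondrial RNA processing ribonuclease (0.04), and H19 (0.02) were the highest. RMRP also had by far the highest level of the list, 166650 RPKM in the control and 171559 with clusterin. None was 2-fold apart. SNHG12 at 0.23 and SNHG7 at 0.11 lay above every measured gene of this list and of the list of other noncoding hosts. SNHG12 also lay above every measured gene of the snoRNP and NMD lists; these positions describe 2 libraries and were not tested.

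**Figure D5:**
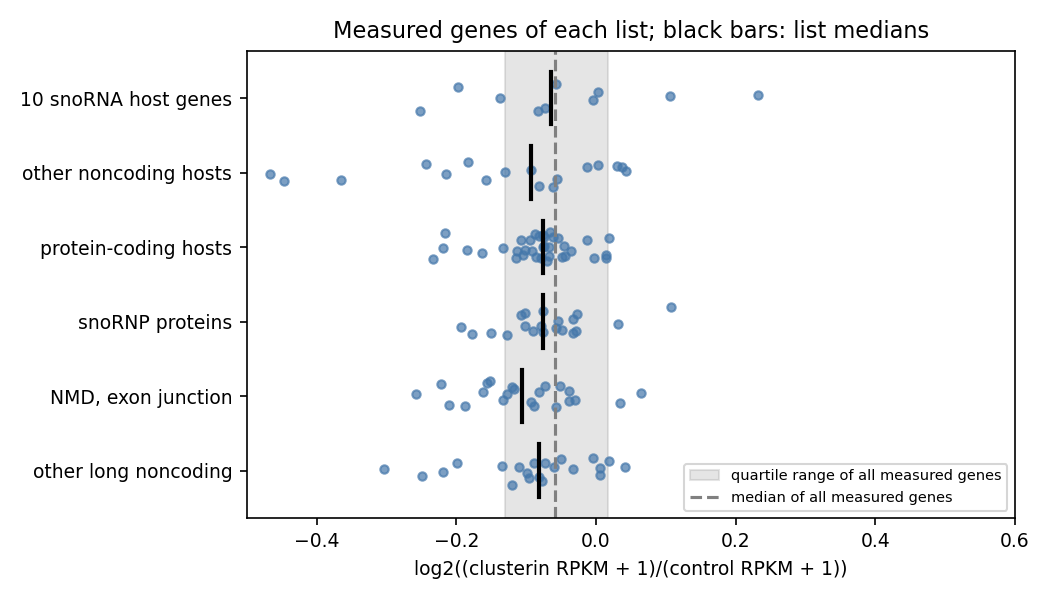
Difference log2((clusterin RPKM + 1)/(control RPKM + 1)) of each measured gene (points) in the 10 host genes and 5 other lists, with list medians as black bars, the median of all measured genes as a dashed line (-0.06) and their quartile range shaded. The list medians lie from -0.11 to -0.07, and SNHG12 (0.23) is the point furthest to the right.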

How the data were processed

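Polyadenylated RNA of 2 cultures was sequenced. The submitters' processing notes name the tools Bowtie, TopHat and Cuffdiff and the build hg19, with versions, strand setting and scaling not given in the sources used here. Beside 1 level per gene and library, the authors deposited a log2 ratio with its p-value and q-value. The headers name no unit for the levels, and the authors' levels were taken as RPKM from the values: for 476 of 518 small RNA genes above 0, level times length was a whole number of reads within 0.02 in both libraries. Despite the named build, the deposited coordinates of the members' symbol rows equal those of RefSeq on GRCh38.p14 at both ends for 5 of the 10 members, and that build is given for them.

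Reads of other genes were recovered as the transcript length at which both levels were whole and gave the deposited p within 2%, for 94.6% of 20642 genes above 0. The recovery was tested on simulated data. Ratios have exact Clopper-Pearson intervals (95%), levels exact Poisson ones; without molecular identifiers, reads need not be separate molecules, so both cover counting error only. Differences used a pseudocount of 1 RPKM and a minimum mean of 1 RPKM. The genes named are the 10 members, their listed snoRNAs, the nearest and overlapping genes, and the 2 highest, 2 lowest and most abundant members of each list; SNHG7 and SNHG12 beside lists, and other singled-out genes, were named after their values were seen. A few genes that this rule selects are not reported here. Older symbols were matched through RefSeq and the table of names. The members and lists were chosen with earlier results of these data known. Python 3.11.15, numpy 2.4.6, scipy 1.17.1 and pandas 2.3.3 were used.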

Additional observations from a re-analysis of the deposited data

How the results depend on the processing

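With 1 library per group no result has a replicate check, and depth limits the snoRNAs of SNHG5 and SNHG16 most. From Ensembl rows, an alternative chosen after seeing the data, SNHG3 went from -0.20 to 0.10, the median of the 10 host genes from -0.07 to 0.042, and the count below 0 from 7 to 4. The share of all genes below 0 in Ensembl rows is not given here. Subtracting the snoRNA reads from those rows was also chosen after seeing the data, as was leaving out the most abundant snoRNA of a host, which took the summed snoRNAs of SNHG1 from 1.25 to 0.856. Scaled to ribosomal protein genes, 4 of the 10 host genes were below 0, and the median of all measured genes was 0.008. With the control rescaled to a median of 0 GAS5, SNHG3 and SNHG5 kept their sign while SNHG16 and SNHG15 went above 0. In no planned setting did GAS5, SNHG3, SNHG5, SNHG7 or SNHG12 change sign. All 7 H/ACA box snoRNAs were higher in every planned setting, and 1 hosted snoRNA was 2-fold apart with a pseudocount of 0.1 RPKM. Pseudocounts and filters cannot change the sign of a gene, and rescaling the control or scaling to ribosomal protein genes raised every difference. For SNHG7, SNHG12 and the H/ACA box snoRNAs these settings therefore could not have given the opposite sign. The number of measured genes 2-fold apart, 29, was 76 with a pseudocount of 0.1, 5 with a pseudocount of 5, 7 with a minimum mean of 5 RPKM, and 115 at 1.5-fold; none of the 10 host genes was among them in any of these. No paired analysis was possible because each group has 1 library.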

Other observations

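As a list, genes linked to what GAS5 is known for were near level. Of 13 measured growth arrest and glucocorticoid receptor genes, 7 were below 0 and 6 above, with a median of -0.02 and none 2-fold apart. NR3C1, the gene of the receptor itself, had 4516 and 3547 reads (ratio 0.905, 0.866 to 0.946). FKBP5, a glucocorticoid-induced chaperone of the receptor, had 1520 and 1095 reads, or 3.74 RPKM without and 3.11 RPKM with clusterin (ratio 0.830, 0.768 to 0.898). SGK1, a kinase that glucocorticoids also induce, stood at 24.7 and 26.0 RPKM (ratio 1.05, 1.005 to 1.10), so the list held receptor targets on both sides of 1. TSC22D3 (ratio 0.986, 0.940 to 1.03) and PER1 (ratio 1.01, reads not recovered), of the same list, were near level. CDKN1A, a cell cycle inhibitor, was at 0.06, and MYC had the highest level, 160 and 163 RPKM.

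Genes of translation that share the pyrimidine tract lay mostly below 0, where 70.2% of all measured genes lay, and mostly below the median of all measured genes (-0.06). Of 17 measured such genes outside the ribosomal protein family, 14 were below 0 and 12 below that median. Their own median was -0.09 and none was 2-fold apart. HNRNPA1, a splicing factor (397 and 336 RPKM, -0.24), and PABPC1, the poly(A) binding protein (59.0 and 52.5, -0.16), were the lowest, EEF1D (0.05) and EEF2 (0.01) the highest, and EEF1A1 stood at 2222 and 2100 RPKM. Of 81 measured ribosomal protein genes 74 were below 0 and 57 below the median of all measured genes, with a list median of -0.10. RPS28 and RPS21 were the highest, both at 0.08, and RPL41 had the highest level, 1561 and 1449 RPKM.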
